A study of Mus musculus with 9 samples.

Results

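Genes through which bone marrow stromal cells support blood-forming cells were followed in ST2 cells, a mouse bone marrow stromal line, under Wnt stimulation. The 10 genes were taken by name from the 54532 genes of the count table: the secreted or membrane-bound signals Cxcl12, Kitl, Il7 and Angpt1, the adhesion molecule Vcam1, the receptors Lepr, Pdgfra and Pdgfrb, and the transcription factors Foxc1 and Ebf3. ST2 cells, labelled as wild type (WT) and as mesenchymal stem cells, received for 72 h either vehicle, or Wnt3a made as a recombinant human protein (rhWnt3a, 50 ng/ml), or this protein together with 20 µM OSMI, an inhibitor of O-GlcNAc transferase (OGT), the enzyme that attaches the sugar O-GlcNAc to proteins inside the cell. Each group had 3 libraries. The third group is called rhWnt3a with OSMI after the sample titles, although its treatment label and the design text name OSMI alone. No group is titled as OSMI without rhWnt3a. The paper's results section describes this treatment as both agents combined, while its methods section lists OSMI by itself. The line is a single established line, and the sample labels do not say whether the 3 libraries of a group came from separate cultures. The paper calls them biological replicates in the legend of its heatmap of glycolytic genes, without saying how they were obtained, so a p-value measures the spread between these libraries, part of which may be technical. With 3 libraries against 3, the smallest p of an exact rank test is 0.1. Polyadenylated RNA was counted per gene, with 16135898 to 17583945 counts per library.

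In bone marrow, blood stem cells and early lymphocytes lie beside perivascular stromal cells. Those cells retain them through the chemokine CXCL12, which acts on the receptor CXCR4, keep them alive through KITL (stem cell factor), the ligand of KIT, and feed early B lymphocytes with the cytokine IL-7. Binding through VCAM1 holds blood cells to the stroma, and angiopoietin 1, the product of Angpt1, acts on the receptor TEK on endothelial and blood stem cells. The leptin receptor (LEPR) and the PDGF receptors PDGFRA and PDGFRB mark these stromal cells, and FOXC1 and EBF3 are transcription factors that keep the niche program on in them. Canonical Wnt signalling acts through β-catenin and transcription factors of the TCF/LEF family, and Axin2 is a widely used target.

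The treatment was visible in Axin2, at 4, 14 and 10 counts in vehicle replicates 1 to 3, at 355, 296 and 315 counts with rhWnt3a and at 203, 185 and 297 counts with rhWnt3a and OSMI. All rhWnt3a libraries were far above all vehicle libraries (log2 fold change 5.06, SE 0.35). Between the libraries with and without OSMI, in the presence of rhWnt3a, Axin2 overlapped and did not pass the test (log2 fold change −0.51, Benjamini-Hochberg adjusted p = 0.280 in edgeR's quasi-likelihood test). The label of the cells was checked against 12 stromal markers, among them the members Pdgfra and Pdgfrb. Their summed level was 26633, 28254 and 21659 CPM (counts scaled to library size) with vehicle, led by the collagen genes Col1a1 and Col1a2, and none of the 12 was at or under 3 counts in every library. With rhWnt3a the sum was lower in every library, at 21082, 18279 and 20894 CPM, with Ly6a (log2 fold change −1.53) and Vim (−1.10) called lower and Prrx1 (0.88) higher. The stromal surface marker Thy1 had at most 4 counts in any library, and so had the member Lepr, the gene most used to mark niche stroma in vivo. Markers of epithelium summed to at most 0.191 CPM. Markers of blood cells, led by Lyz2 in every library, summed to 6.60, 8.35 and 11.03 CPM with vehicle, to 3.04, 3.07 and 2.69 CPM with rhWnt3a and to 4.66, 3.56 and 0.991 CPM with OSMI added. Of these 10 markers 7 were at or under 3 counts in every library, Cd3e, Hbb-bs and Itgam at 0. Endothelial markers, led by Vwf or Emcn, summed to 3.85, 4.33 and 2.60 CPM, to 2.80, 1.59 and 3.17 CPM and to 3.63, 2.93 and 3.09 CPM in the same order, with Cdh5, Cldn5 and Kdr at or under 3 counts throughout. Within this list Emcn went from 19, 34 and 22 counts with vehicle to 0, 0 and 0 with rhWnt3a and 0, 2 and 0 with OSMI added. Vwf went the other way, at 16 to 20 counts with vehicle, 21 to 40 with rhWnt3a and 34 to 51 with OSMI added. In CPM its vehicle and rhWnt3a libraries overlapped. With both agents Vwf was called higher than vehicle, a call lost under 10 of 18 alternative settings. The stromal and blood cell sums were thus lower with rhWnt3a, as the member signals were, while the endothelial sums overlapped with those of vehicle. Of 11 stromal markers tested, 2 were called lower and 1 higher (5.86% and 2.92% of all genes). Their median log2 fold change was −0.15 (0.04 over all genes). Col1a1 had a mean of 10055 CPM with vehicle and 6963 CPM with rhWnt3a and was not called. Of 2 blood cell markers tested, 0 were called. The part of these markers in the results of the members was not tested.

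Libraries of the same group were not evenly alike. An axis that held 54.8% of the variance within groups placed vehicle replicates 1 and 2, rhWnt3a replicates 1 and 3 and OSMI replicate 3 on side 1, and vehicle replicate 3, rhWnt3a replicate 2 and OSMI replicates 1 and 2 on side 2. Pdgfrb and Pdgfra followed this axis, being 0.64 and 0.58 higher on side 1 on the log2 scale after the group means were removed. Cxcl12, Kitl and Vcam1 hardly did, with differences of 0.06, −0.07 and 0.02 between the sides. Foxc1 (0.12), Angpt1 (0.28), Ebf3 (0.30) and Il7 (−0.25) lay between. Results that rest on single libraries are therefore given with and without them. In 1 alternative the most distant library of each group was left out, which was replicate 3 for vehicle, 2 for rhWnt3a and 3 for OSMI. The vehicle and rhWnt3a libraries that remain all lie on side 1 and the OSMI libraries on side 2, so in that alternative OSMI and the axis cannot be told apart.

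Per kilobase of transcript, which allows levels to be compared between genes, the vehicle cells held most Cxcl12 (162 ± 9.26 CPM per kb, SD, n = 3) and Pdgfrb (160.0 ± 37.8). These levels overlapped between libraries. Foxc1 (63.2 ± 3.98) and Kitl (58.1 ± 6.05) came next and overlapped as well. Pdgfra (26.7 ± 6.04) stood alone below them, then Angpt1 (13.05 ± 1.56) and Vcam1 (12.99 ± 1.29) at levels that could not be told apart, Ebf3 (2.66 ± 0.307), Il7 (0.293 ± 0.0600) and Lepr (0.0166 ± 0.0134). Among the 14004 genes tested, Cxcl12 lay at the 98.4th percentile of the level per kilobase in vehicle cells, and Il7 at the 6.98th. With rhWnt3a the order changed at the top: Pdgfrb led at 155 ± 35.6 CPM per kb, Foxc1 followed at 45.0 ± 2.15, and Cxcl12, at 32.6 ± 2.21, overlapped with Pdgfra at 31.0 ± 2.62. Kitl stood below Pdgfra at 12.9 ± 0.138 CPM per kb. With OSMI added, the level of Ebf3 (4.24 ± 0.442 CPM per kb) overlapped with that of Vcam1 (3.51 ± 0.535), and Vcam1 overlapped with Angpt1 (3.03 ± 0.981).

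**Figure D1:**
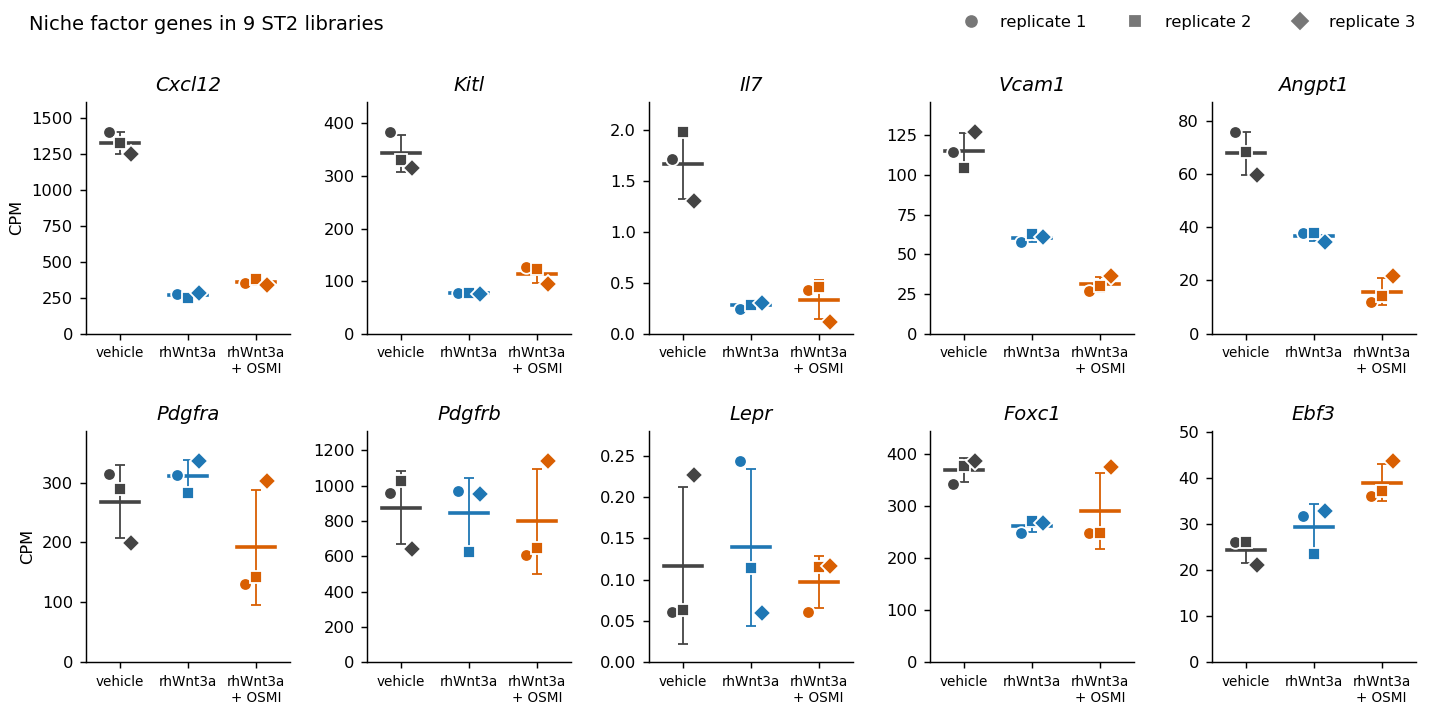
Level of the 10 niche factor genes in each of the 9 libraries, in CPM on TMM-scaled totals (y axis, from 0, scaled for each gene), by group. Symbols are replicates 1 to 3, thick bars group means and thin bars 1 SD. Cxcl12, Kitl, Il7, Vcam1 and Angpt1 were lower in all rhWnt3a libraries than in all vehicle libraries, while Lepr stayed at 0.243 CPM or less.

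The first comparison asks what rhWnt3a does to these genes. Cxcl12, Kitl, Vcam1 and Angpt1 fell, and none of the 9 genes that could be tested was called higher. Il7 is left out of the counts over members here and below, because it passed the count filter through its vehicle libraries alone and so had to differ. Of the 8 others, 4 were called lower, where 5.86% of all 14004 tested genes were called lower, and 0 were called higher, where 2.92% were (8.78% in either direction). Calls required both an adjusted p under 0.05 and an absolute log2 fold change over 0.5. The groups did not overlap for 5 of the 8, against 26.4% of all tested genes, and the median log2 fold change was −0.69 over the 8 and 0.04 over all genes. The members were chosen with earlier results of these data known. Such contrasts, here and below, are therefore a description and no independent support. No member was called higher by DESeq2 or at an unadjusted p under 0.05 either. In bulk RNA, fewer cells of a kind and less RNA per cell cannot be told apart.

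Cxcl12 was at 1399, 1323 and 1247 CPM in vehicle replicates 1 to 3, and at 274, 246 and 279 CPM with rhWnt3a. Every treated library was far below every vehicle library, and the mean was 20.1% of that of vehicle. In edgeR the log2 fold change was −2.31 (95% interval −2.62 to −2.01, adjusted p = 1.64e-05), the 10th smallest p of all genes. Kitl was at 383, 331 and 315 CPM with vehicle and at 76.8, 77.2 and 75.6 CPM with rhWnt3a. The treated libraries were almost identical to each other and again far below the vehicle ones, at 22.3% of their mean (log2 fold change −2.16, 95% interval −2.50 to −1.83, adjusted p = 3.62e-05). Il7 was scarce, at 28, 31 and 23 counts with vehicle and 4, 5 and 5 counts with rhWnt3a. These counts are a description, and no p is given for Il7 because of the way it passed the filter. Where its interval is drawn or its call is counted, these support nothing. An antisense gene across Il7, Gm16685, had at most 11 counts in any library, and as strand use in counting is not given in the sources used here, reads of the pair cannot be told apart.

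Promoters are shown for Cxcl12 and Kitl, the members that fell most among the well counted ones and that moved together. Windows of 300 bases around the transcription start were available from RefSeq (build GRCm38.p6) for 6 of the 10 genes. They were searched on both strands for CTTTGA, the core bound by TCF/LEF factors, and for a palindrome bound by EBF factors, TCCC and GGGA with 2 bases of any kind between them. The windows of Cxcl12 (chr6:117168285-117168584) and Kitl (chr10:100015571-100015870) lie on the plus strand and read 5′ to 3′, with capitals marking a match to the TCF/LEF core on the opposite strand.
Cxcl12: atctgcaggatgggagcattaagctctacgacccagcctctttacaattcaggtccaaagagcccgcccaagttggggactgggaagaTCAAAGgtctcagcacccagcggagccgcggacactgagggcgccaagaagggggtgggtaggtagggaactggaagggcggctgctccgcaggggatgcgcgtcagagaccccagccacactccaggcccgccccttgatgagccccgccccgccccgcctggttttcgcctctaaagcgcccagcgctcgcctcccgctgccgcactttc
Kitl: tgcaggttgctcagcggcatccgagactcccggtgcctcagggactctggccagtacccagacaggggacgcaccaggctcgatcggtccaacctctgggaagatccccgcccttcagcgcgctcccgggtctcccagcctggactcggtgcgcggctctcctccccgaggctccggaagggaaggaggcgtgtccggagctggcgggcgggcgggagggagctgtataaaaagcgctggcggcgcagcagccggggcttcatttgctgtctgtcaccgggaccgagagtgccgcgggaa
The window of Cxcl12 held 1 match to the TCF/LEF core, which began 162 bases before the start, and that of Kitl held none. Such a match occurred in 5257 of the 32851 promoters of the same length. Among the 7 windows of members, the only other match was in 1 of 2 windows of Lepr, and none held the EBF palindrome, which occurred in 0.904% of all promoters.

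Vcam1 and Angpt1 fell less with rhWnt3a. Vcam1, which binds an integrin on blood cells, was at 115, 104 and 127 CPM with vehicle and at 57.7, 62.5 and 61.0 CPM with rhWnt3a. All treated libraries were lower, at 52.4% of the vehicle mean (log2 fold change −0.93, 95% interval −1.25 to −0.62, adjusted p = 0.00240 in edgeR). Angpt1 went from 75.9, 68.2 and 59.7 CPM to 37.9, 37.9 and 34.6 CPM, again without overlap (log2 fold change −0.88, 95% interval −1.34 to −0.43, adjusted p = 0.0242). The call of Angpt1 was lost when vehicle replicate 1 or 2 or any rhWnt3a replicate was left out, with log2 fold changes of −0.80 to −0.90 and adjusted p of 0.0619 to 0.115 (3.22e-08 to 0.115 over its 18 alternatives).

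The receptors and transcription factors gave no call with rhWnt3a. Pdgfrb was at 961, 1027 and 640.3 CPM with vehicle and 969, 622 and 950.2 CPM with rhWnt3a, so that the libraries of side 2 of the axis were the low ones in both groups. Pdgfra, at 315, 289.8 and 199.5 CPM against 313, 283 and 336 CPM, overlapped too. The 95% intervals of the log2 fold change ran from −0.70 to 0.60 for Pdgfrb and from −0.46 to 0.89 for Pdgfra, so changes of these sizes were not detectable here. Foxc1 was at 343, 378 and 387 CPM with vehicle and at 249, 272 and 267 CPM with rhWnt3a. Its groups did not overlap, yet it missed both thresholds (log2 fold change −0.49, adjusted p = 0.133 in edgeR). It was called with the 6 libraries of these groups alone (log2 fold change −0.52, adjusted p = 0.0328, over 18 alternatives 4.59e-06 to 0.402). Without the 3 distant libraries it was called as well, and the vehicle and rhWnt3a libraries left there all lie on side 1. Ebf3, at 26.1, 26.2 and 21.3 CPM against 31.9, 23.6 and 32.8 CPM, overlapped (log2 fold change 0.26, adjusted p = 0.457). Lepr had 1, 1 and 4 counts with vehicle, 4, 2 and 1 with rhWnt3a and 1, 2 and 2 with OSMI added. A level of 3 counts corresponds to 0.170 to 0.191 CPM, so Lepr was near or under this level in every library, and it had too few counts for the test.

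**Figure D2:**
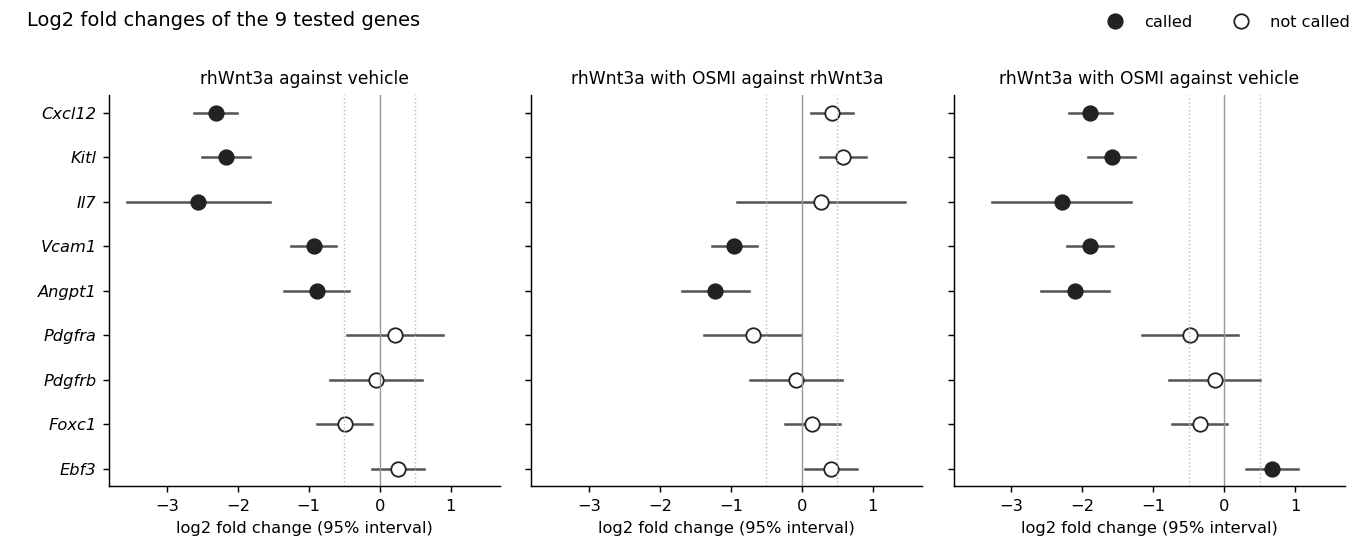
Log2 fold changes (x axis) of the 9 tested niche factor genes (y axis) in the 3 comparisons. Points are estimates from the edgeR fit, bars their 95% intervals, filled points genes called, and dotted lines the fold threshold of 0.5. With rhWnt3a Cxcl12, Kitl, Vcam1 and Angpt1 were called lower, and with OSMI added Vcam1 and Angpt1 again. Il7 is drawn too but passed the filter through vehicle alone, so its interval and its calls against vehicle support nothing.

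The second comparison asks what OSMI changes in cells that also have rhWnt3a. Vcam1 and Angpt1 fell further, and no other member was called. Of the 8 genes, 2 were called lower, where 3.05% of all tested genes were, and 0 were called higher, where 1.69% were (4.74% in either direction). By DESeq2 1 was higher, Kitl. At an unadjusted p under 0.05 with the same fold threshold Kitl was higher and Vcam1, Angpt1 and Pdgfra lower. Cxcl12 and Ebf3 had such a p as well, but their fold changes stayed under that threshold. The groups did not overlap for 5 of the 8, against 33.7% of all genes. The median log2 fold change was 0.03 over the 8 and −0.01 over all genes. This comparison shares its rhWnt3a libraries with the first and its OSMI libraries with the third, so the values are given side by side and the comparisons are not independent.

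Vcam1 was at 27.1, 30.0 and 36.4 CPM with rhWnt3a and OSMI, below every library with rhWnt3a alone (57.7 to 62.5 CPM). The log2 fold change was −0.96 (95% interval −1.27 to −0.64, adjusted p = 0.00666 in edgeR). Angpt1 was at 11.7, 14.1 and 21.5 CPM with OSMI, all below the 34.6 to 37.9 CPM of rhWnt3a alone (log2 fold change −1.22, 95% interval −1.69 to −0.75, adjusted p = 0.0123). OSMI replicate 3, on side 1 of the axis, was the highest of its group for both genes. Without OSMI replicate 2, Vcam1 had an adjusted p of 0.0525 (1.34e-08 to 0.0525 over its 18 alternatives). Angpt1 had adjusted p of 0.0505 without rhWnt3a replicate 1, 0.0573 without OSMI replicate 1 and 0.0757 without OSMI replicate 2 (3.80e-09 to 0.0757 over 18). Stromal markers were lower too. Their sums, led by Col1a2 in each library, were 21082, 18279 and 20894 CPM with rhWnt3a and 10040.2, 9119 and 17496 CPM with OSMI added. OSMI replicates 1 and 2, the low ones, lie on side 2 of the axis, as does rhWnt3a replicate 2, the lowest of its group. The groups are thus not balanced over the axis. Of 11 tested, 4 were called lower and 0 higher (3.05% and 1.69% of all genes), with a median log2 fold change of −0.73. Values were lower for 10 and higher for 1, Cd44, with means of 62.8 CPM with rhWnt3a and 104 CPM with OSMI added. The calls of Ly6a and Nt5e held in each of 18 alternatives, and those of Col3a1 and Vim did not. The part of these markers in the falls of Vcam1 and Angpt1 was not tested.

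Cxcl12 and Kitl gave values in the other direction and were not called. Cxcl12 missed both thresholds, and Kitl missed only that on the adjusted p. Cxcl12 was at 353, 381 and 339.5 CPM with OSMI, above all libraries with rhWnt3a alone, with a log2 fold change of 0.43 (95% interval 0.13 to 0.72, adjusted p = 0.0971). Kitl was at 126, 122 and 94.1 CPM with OSMI, also above every rhWnt3a library (log2 fold change 0.58, 95% interval 0.25 to 0.90, adjusted p = 0.0528). Kitl was called in 7 of 18 alternatives, over which its adjusted p ran from 1.04e-06 to 0.165. These were DESeq2 (adjusted p = 0.00424), DESeq2 size factors in edgeR (0.0476), a filter of 10 counts in every library (0.0403), the unadjusted p, and the fits without vehicle replicate 3 (0.0490), without OSMI replicate 3 (log2 fold change 0.70, adjusted p = 0.0147) or without the 3 distant libraries (1.04e-06). Whether OSMI acts differently on these genes than on Vcam1 and Angpt1 was not tested. Il7, at 7, 8 and 2 counts with OSMI, overlapped with the 4 to 5 counts of rhWnt3a alone.

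Among the receptors, Pdgfra depended on a single library. It was at 131, 143 and 302 CPM with rhWnt3a and OSMI, against 283 to 336 CPM with rhWnt3a alone, so OSMI replicate 3 fell among the rhWnt3a libraries and the other OSMI libraries far below them. With all libraries the log2 fold change was −0.70 (adjusted p = 0.213 in edgeR), and without OSMI replicate 3 it was −1.18 (adjusted p = 0.0113, over 18 alternatives 1.43e-10 to 0.441). On side 1 of the axis the difference was −0.10, and on side 2 it was −1.05. Pdgfrb was at 610.6, 645 and 1139 CPM with OSMI and overlapped with rhWnt3a alone (log2 fold change −0.09). Without the 3 distant libraries Pdgfrb was called lower, at −0.62 against rhWnt3a (adjusted p = 8.08e-07, over 18 alternatives up to 0.995) and −0.70 against vehicle (5.28e-08, up to 0.958), where OSMI cannot be told apart from the axis. Within the sides its difference from rhWnt3a was 0.25 and 0.01. Foxc1, at 249, 249 and 375 CPM, had a difference of 0.15 that turned to −0.08 without OSMI replicate 3. Ebf3, at 36.2, 37.3 and 43.8 CPM, was above every library with rhWnt3a alone but was not called (log2 fold change 0.41, adjusted p = 0.179).

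The third comparison sets rhWnt3a with OSMI against vehicle. Of the 8 genes, 4 were called lower, where 9.34% of all tested genes were, and 1 was called higher, where 4.84% were (14.2% in either direction). The groups did not overlap for 5 of the 8, against 38.8% of all genes. The median log2 fold change was −1.03 over the 8 and −0.01 over all genes. The 4 lower genes were those called lower with rhWnt3a alone, with log2 fold changes of −2.11 for Angpt1, −1.89 for Vcam1, −1.89 for Cxcl12 and −1.59 for Kitl. In percent of the vehicle mean, Cxcl12 was at 27.1%, Kitl at 33.3%, Vcam1 at 27.0% and Angpt1 at 23.2% with both agents, where rhWnt3a alone left 20.1%, 22.3%, 52.4% and 54.2%. Ebf3 was the gene called higher, 1.59-fold, with all OSMI libraries (36.2 to 43.8 CPM) above all vehicle libraries (21.3 to 26.2 CPM; log2 fold change 0.67, 95% interval 0.30 to 1.04, adjusted p = 0.0225 in edgeR). Its call was lost without vehicle replicate 1 (adjusted p = 0.0558), vehicle replicate 3 (0.0605) or OSMI replicate 3 (0.0507). It was also lost without the 3 distant libraries, with a replicate block and beyond a log2 fold change of 1. Over 18 alternatives its adjusted p ran from 0.000379 to 0.0658 and its log2 fold change from 0.45 to 0.77. Without OSMI replicate 3, Pdgfra (log2 fold change −0.97, adjusted p = 0.0116, over 18 alternatives 7.73e-11 to 0.670) and Foxc1 (−0.57, adjusted p = 0.0160, over 18 alternatives 9.59e-07 to 0.542) were called lower than vehicle.

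Within either side of the axis Cxcl12, Kitl, Vcam1 and Angpt1 stayed below vehicle. On side 2, which holds 1 vehicle, 1 rhWnt3a and 2 OSMI libraries, Cxcl12 differed by −2.34 on the log2 scale between rhWnt3a and vehicle, and Angpt1 by −0.65. On side 1 the same differences were −2.30 and −0.99. Vcam1 differed between OSMI and rhWnt3a alone by −0.70 on side 1 and by −1.13 on side 2, and Angpt1 by −0.75 and −1.55. These values have no test.

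Members were compared by their profiles over the 9 libraries. With the mean of each gene removed, Cxcl12 and Kitl differed by a root mean square of 0.160 on the log2 scale, and each was the nearest of 11435 genes to the other. Next to Cxcl12 came Carns1 (0.167) and Nr4a1 (0.192), and next to Kitl came Epha4 (0.213) and Faah (0.232). Cxcl12 and Kitl lie on chromosomes 6 and 10. Vcam1 and Angpt1 differed by 0.222 and had the same nearest gene, Samd5 (0.146 and 0.173), but neither was among the 3 genes nearest to the other. Rgs2 (0.165) and Apln (0.167) followed for Vcam1, and Cdh10 (0.187) and Gpr153 (0.191) for Angpt1. Il7 was nearest to Actg2 (0.296), Slc29a1 (0.316) and Rab27b (0.328). Ebf3, whose own profile varied little, was nearest to Xpnpep3 (0.0489), Irak1 (0.0504) and Drosha (0.0511). Pdgfra and Pdgfrb differed by 0.319, hardly less than Pdgfrb and Foxc1 (0.341), Kitl and Il7 (0.351) or Cxcl12 and Il7 (0.365).

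**Figure D3:**
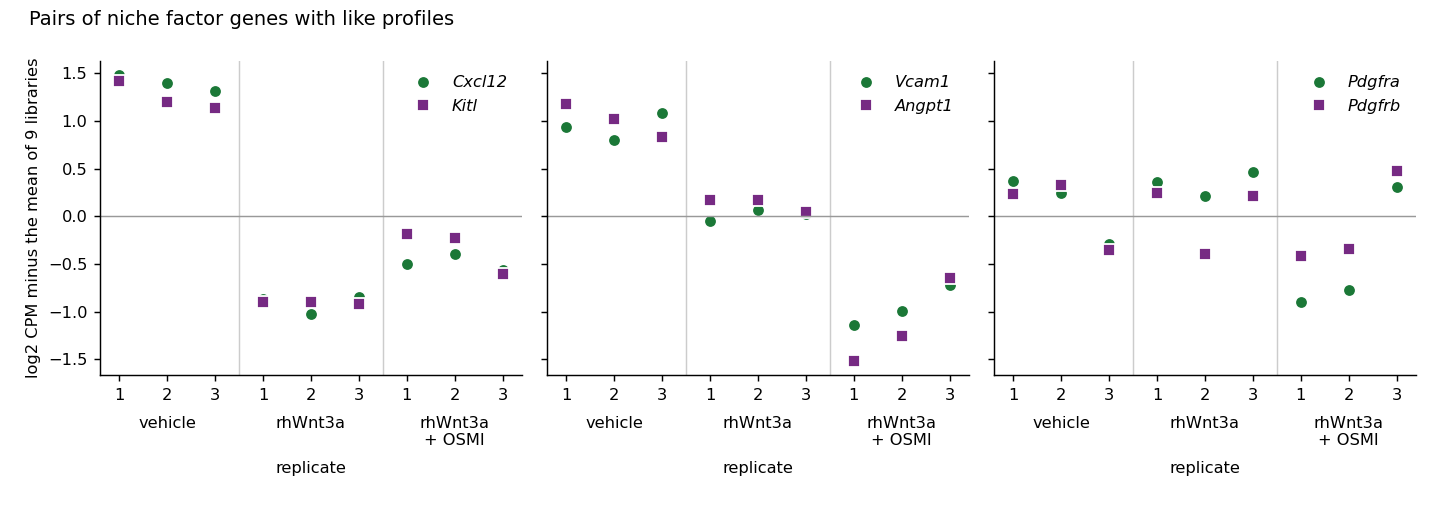
Level of 3 pairs of niche factor genes in each library, as log2 CPM minus the mean of the 9 libraries (y axis), by group and replicate (x axis). Cxcl12 and Kitl lay lowest with rhWnt3a alone, Vcam1 and Angpt1 lowest with rhWnt3a and OSMI, and Pdgfra and Pdgfrb varied between replicates of the same group.

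For the lists that follow, the shares over all tested genes were 2.92% higher and 5.86% lower with rhWnt3a, 1.69% and 3.05% with OSMI added to it, and 4.84% and 9.34% with both against vehicle. The counts include Icam1, Mcam, Pdgfb, Lpl, Emcn, Il6 and Ackr3, which had fewer than 10 counts in every library of at least 1 group, so the counts support nothing by themselves and those genes are given without a test. Other signals of stromal cells to blood cells, 28 genes of which 19 were tested, moved in both directions with rhWnt3a: 2 rose and 4 fell, with a median log2 fold change of −0.27. Fgf2 (log2 fold change 2.21, SE 0.29), a fibroblast growth factor, and Lif (1.95, SE 0.21), a cytokine of the IL-6 family, rose. Ptn (−3.71, SE 0.33), which encodes pleiotrophin, Gas6 (−1.61, SE 0.19), the ligand of the TAM receptors, Nov (−1.38, SE 0.18) and Angptl2 (−0.98, SE 0.19) fell. Of these calls only that of Angptl2 was lost when a library was left out, namely vehicle replicate 2 (adjusted p = 0.0524). With OSMI added to rhWnt3a, 1 rose and 2 fell, with a median of −0.52. Csf1, the growth factor of macrophages, rose from 671, 553 and 665 CPM to 1639, 1439.9 and 1706 CPM, without overlap (log2 fold change 1.34, SE 0.20, adjusted p = 0.00596). Igf1 (−1.86, SE 0.34) and Lif (−0.93, SE 0.20) fell, and both calls were lost without rhWnt3a replicate 1, rhWnt3a replicate 3, OSMI replicate 1 or OSMI replicate 2, Lif also without vehicle replicate 2 or rhWnt3a replicate 2, with adjusted p up to 0.0856 for Igf1 and 0.120 for Lif. Against vehicle, 4 of the 19 were called higher and 9 called lower with both agents (median −0.77).

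Of 10 genes for receptors that answer the member ligands, 3 were tested, and Cxcr4, Il7r and Tie1 had 0 counts in all libraries while Kit had at most 1. Itga4, the integrin chain that pairs with Itgb1 to bind VCAM1, had at most 3. Itgb1, named after its values were seen, was abundant, at 1494, 1573 and 1624 CPM with vehicle, 1143, 1205 and 1160.04 CPM with rhWnt3a and 1162, 1193 and 1104 CPM with OSMI added. It was not called (rhWnt3a against vehicle −0.42, adjusted p = 0.0843). The integrin gene Itgb7 was at 48, 72 and 93 counts with vehicle and 27, 40 and 19 with rhWnt3a, a fall (log2 fold change −1.33) that 4 omissions of a library undid (vehicle replicate 2 or 3, rhWnt3a replicate 1 or 3; adjusted p up to 0.129). Ackr3, a scavenging receptor of CXCL12, was at 44, 48 and 30 counts with rhWnt3a and 3, 4 and 7 with OSMI added. The vehicle libraries, at 5, 11 and 39 counts, differed widely.

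Around the PDGF and leptin receptors, 11 of 12 genes were tested, and 2 rose and 3 fell with rhWnt3a (median 0.10). Pdgfb is among these 3 but is given without a test. The falls of Pdgfrl and Pdgfd were lost when certain libraries were left out. For Pdgfrl they were vehicle replicate 2 or rhWnt3a replicate 1 or 3 (adjusted p up to 0.0782). For Pdgfd they were vehicle replicate 1 or 2 or rhWnt3a replicate 1 or 3 (up to 0.118). Pdgfc, a ligand of PDGFRA, rose from 10.2, 11.02 and 17.6 CPM to 42.9, 47.8 and 40.4 CPM (log2 fold change 1.75, SE 0.21), and was at 18.3, 18.02 and 22.6 CPM once OSMI was added. This second step was a fall (−1.16, SE 0.21) whose call was lost without rhWnt3a replicate 1 or 2 or OSMI replicate 1 or 2 (adjusted p up to 0.0816). Pdgfrl, a PDGF receptor-like gene, fell with OSMI from 26.8, 36.2 and 23.8 CPM to 9.98, 9.93 and 10.2 CPM (−1.53, SE 0.17), and that call held in each of 18 alternatives. Socs3, the feedback inhibitor of leptin and cytokine receptors, rose with rhWnt3a (0.82, SE 0.14) and fell when OSMI was added (−0.85, SE 0.14). The fall was lost without rhWnt3a replicate 2 or 3 or OSMI replicate 1 or 2 (adjusted p up to 0.0758). Pdgfb was at 33, 30 and 15 counts with vehicle, 3, 2 and 6 with rhWnt3a and 0, 0 and 0 with OSMI added. With OSMI added to rhWnt3a 0 genes of the list were called higher and 3 lower (median −0.24), and against vehicle 0 and 3 (median −0.03).

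Of 22 further stromal transcription factors, 19 were tested. With rhWnt3a, Twist1 (log2 fold change 1.04, SE 0.20), Prrx1 (0.88, SE 0.12) and Prrx2 (0.85, SE 0.20) rose, and Pparg (−1.73, SE 0.14), the regulator of fat cell formation, and Sox9 (−1.003, SE 0.22), that of cartilage, fell. The calls of Prrx1 and Pparg held whichever library was left out. Those of Twist1 (without vehicle replicate 2), Prrx2 (without vehicle replicate 1 or 2) and Sox9 (without vehicle replicate 1 or 2 or any rhWnt3a replicate) did not, with adjusted p up to 0.0521, 0.0981 and 0.0960. Ebf2 and Tcf21 had 0 counts in all libraries. Fat cell markers moved with Cxcl12 and Kitl under rhWnt3a: the 8 markers summed to 43.5, 48.4 and 51.9 CPM with vehicle, to 10.95, 13.1 and 10.4 CPM with rhWnt3a and to 14.8, 13.9 and 11.9 CPM with OSMI added. Pparg led the sum in each library but vehicle replicate 2, where Fabp4 did, and 5 of the 8 (Adipoq, Cfd, Cidec, Plin1 and Retn) were at or under 3 counts in every library. Pparg and Fabp4 fell with rhWnt3a, and Lpl went from 26, 10 and 19 counts to 5, 2 and 2. With OSMI added to rhWnt3a, 2 of the stromal transcription factors rose and 0 fell. Klf4 rose (0.63), a call lost in 12 of 18 alternatives (adjusted p up to 0.127). Pparg rose (0.63, SE 0.14), a call lost in 10 of 18 alternatives (adjusted p from 0.000870 to 0.144). Among those 10 were no filter, the 6 libraries alone, and the fits without vehicle replicate 2, any rhWnt3a replicate or OSMI replicate 1 or 2. Fabp4 went from 3.41, 5.29 and 3.47 CPM to 2.36, 2.58 and 0.874 CPM and was not called (−1.06, adjusted p = 0.109). The part of these genes in the falls of the members was not tested.

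Of 11 other adhesion genes tested with rhWnt3a, 8 had lower and 3 higher values, 7 had groups that did not overlap (26.4% of all tested genes), and the median was −0.28 (0.04 over all genes). Among them 2 rose, Ncam1 (log2 fold change 1.18, SE 0.24) and Alcam (0.86, SE 0.15), and Icam1 and Mcam had few reads. Icam1, also a partner of blood cell integrins, was at 11, 11 and 16 counts with vehicle and at 1, 3 and 0 with rhWnt3a, and Mcam at 19, 16 and 18 against 7, 8 and 4. Ncam1 lost its call without vehicle replicate 1 or 2 or rhWnt3a replicate 1 (adjusted p up to 0.0591). Of 8 genes of the angiopoietin family other than Angpt1, 5 were tested, and with rhWnt3a Angpt4 rose and Angptl2 fell. Angpt4 was at 2.93, 3.82 and 3.96 CPM with vehicle, 24.4, 27.8 and 26.4 CPM with rhWnt3a and 10.9, 12.7 and 24.0 CPM with OSMI added. The rise with rhWnt3a (log2 fold change 2.87, SE 0.30, adjusted p = 0.000293) held in each of 18 alternatives.

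**Figure D4:**
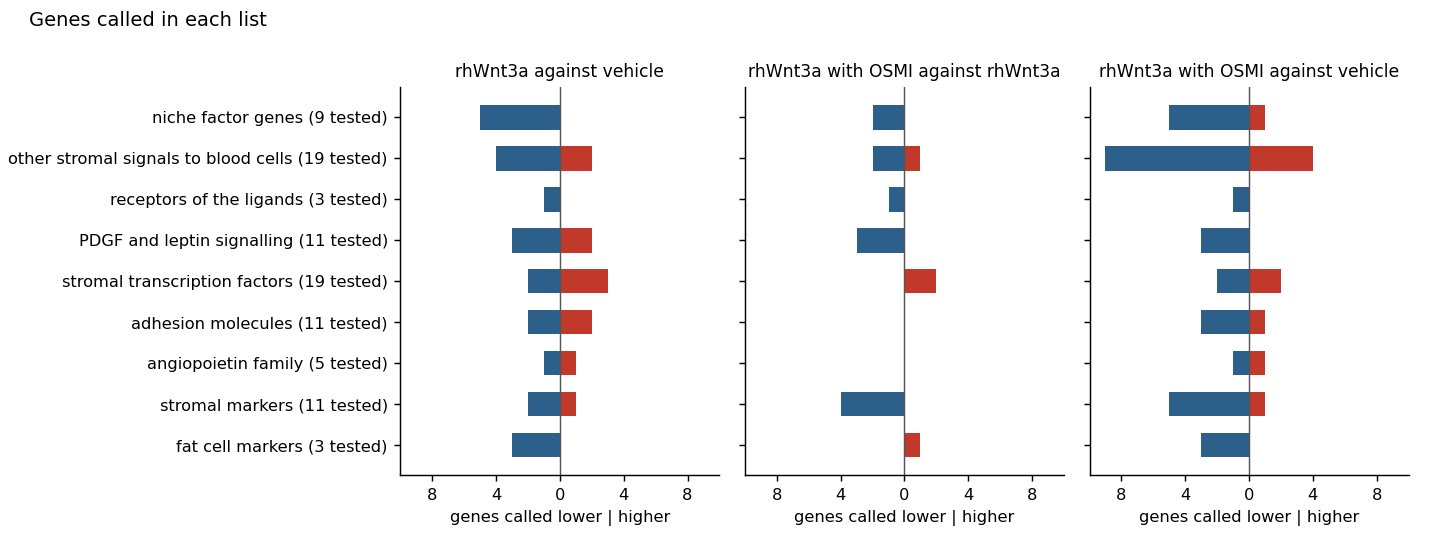
Number of genes called lower (left, blue) and higher (right, red) in each list and comparison (x axis), with the number tested in brackets. Some genes belong to more than 1 list. The bars of the niche factor genes include Il7, and without it 4, 2 and 4 were called lower and 0, 0 and 1 higher.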

How the data were processed

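The authors deposited 1 table with a count of reads per gene and library, made with fastp, HISAT2 2.0.5 and featureCounts 1.5.0-p3 on mm10. Its FPKM values and DESeq2 comparisons of the authors were not used. The analysis used edgeR 4.0.16 under R 4.3.3: filterByExpr (minimum count 10, total 15) kept 14004 genes, TMM scaled the libraries, and all 9 entered a quasi-likelihood fit with Benjamini-Hochberg adjustment within each comparison. The common dispersion was 0.0452. Calls required both an adjusted p under 0.05 and an absolute log2 fold change over 0.5. CPM were computed on totals after TMM; log2 values had a prior count of 2. Intervals cover the spread and counting error of the fit. The members and lists were chosen with earlier results of these data known. Named are the members, at most 8 called genes per list and comparison, Axin2, and the 3 genes nearest in pattern to each called member. Near-identical transcripts (97% identity over at least 100 bases) were searched with BLAST 2.17.0 in GENCODE M21. Matches covered 17.3% of the transcript of Angpt1 (Gm17473), 5.83% of Ebf3 (Gm45278) and 2.59% of Vcam1 (Ankrd40 and Tti2). The other members had none, and 4.86% of Axin2 was covered (Gm11670). Gm17473 had at most 2 counts in any library and Gm45278 at most 12. Figures were drawn with matplotlib 3.10.9 in Python 3.11.15.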

Additional observations from a re-analysis of the deposited data

How the results depend on the processing

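The 3 libraries that stand apart are vehicle replicate 3, rhWnt3a replicate 2 and OSMI replicate 3. Without them OSMI cannot be told apart from the axis, so the counts that OSMI adds there say nothing of stability. With rhWnt3a against vehicle 1230 genes changed. DESeq2 gave 1515 and the 6 libraries of the groups alone 1218. The count moved to 2155 with unadjusted p, 796 with a log2 fold change beyond 1, and 2557 without the 3 libraries that stand apart, and ran from 716 to 1506 when 1 library was left out. Of the niche factor genes 5 changed, 3 with a log2 fold change beyond 1, and 4 to 5 when 1 library was left out. With the 6 libraries alone, and without the 3 libraries that stand apart, 6 changed, Foxc1 being added. The counts of members against vehicle printed here include Il7, whose call supports nothing, and each is lower by 1 without it. Cxcl12 and Kitl kept their calls against vehicle in each of 18 alternatives.

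With OSMI added to rhWnt3a 664 genes changed: 1232 with DESeq2, 1481 without a filter, 345 with 6 libraries, 2271 with unadjusted p, 380 beyond a log2 fold change of 1, 1789 without the 3 libraries, and 203 to 764 with 1 library left out. Of the members 2 changed: 4 with unadjusted p, 1 beyond a log2 fold change of 1, 5 without the 3 libraries, and 0 to 4 with 1 library left out. Against vehicle 1986 genes changed with both agents, 3186 with unadjusted p, 1118 beyond a log2 fold change of 1, 3351 without the 3 libraries, and 1218 to 2328 with 1 library left out. Of the members 6 changed, 8 without the 3 libraries and 5 to 7 with 1 library left out.

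With a replicate block the genes changed were 809, 233 and 1297 in the 3 comparisons, and the members 4, 1 and 5. Replicate numbers did not pair the libraries, so the block is not a better design.

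Signs reversed only for small differences when a library was left out. Pdgfrb with rhWnt3a ran from −0.229 to 0.133, being 0.022 without vehicle replicate 1, 0.096 without vehicle replicate 2 and 0.133 without rhWnt3a replicate 2. With OSMI against rhWnt3a, Pdgfrb ran from −0.4302 to 0.114, being 0.041 without rhWnt3a replicate 1, 0.0047 without rhWnt3a replicate 3, 0.114 without OSMI replicate 1 and 0.087 without OSMI replicate 2. With both agents against vehicle, Pdgfrb ran from −0.477 to 0.067, being 0.038 without vehicle replicate 2, 0.067 without OSMI replicate 1 and 0.0401 without OSMI replicate 2. With OSMI against rhWnt3a, Il7 ran from −0.013 without OSMI replicate 2 to 0.666 without OSMI replicate 3, and Foxc1 from −0.077 without OSMI replicate 3 to 0.285 without OSMI replicate 2. Foxc1 was −0.056 without the 3 libraries. The differences within sides of the axis were chosen as an alternative after the data were seen.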

Other observations

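The ratio of Pdgfrb to Pdgfra per kilobase was 5.59, 6.49 and 5.87 with vehicle, 5.66, 4.02 and 5.18 under rhWnt3a alone, and 8.54, 8.28 and 6.90 when OSMI was added. Every OSMI library was above all others, although each gene alone varied between replicates. This ratio was chosen after the values were seen and has no test. The ratio of Cxcl12 to Kitl was 2.64, 2.89 and 2.86 with vehicle, 2.58, 2.30 and 2.66 under rhWnt3a alone, and 2.03, 2.25 and 2.61 when OSMI was added. RNA alone was measured, in a single line at 72 h, without a group given OSMI alone, so protein levels and effects on blood cells are not known.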
